A study of Mus musculus with 2 samples.

Results

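A set of 10 JAK-STAT genes was followed through the cells of the inflamed central nervous system: the kinase genes Jak1, Jak2 and Tyk2, the transcription factor genes Stat3, Stat5a, Stat5b and Stat6, and the feedback and response genes Socs3, Cish and Pim1. These 10 of the 32285 genes in the files were chosen by symbol, and each symbol matched 1 row in both libraries. The first library came from Stat4fl/flCD11cCre mice, in which both Stat4 alleles are flanked by loxP sites and a Cre recombinase is driven by the promoter of CD11c (Itgax), a surface integrin of dendritic cells (DCs) that other leukocytes can also carry. The second came from WT mice. Both groups were C57BL/6 mice in which experimental autoimmune encephalomyelitis (EAE), which models multiple sclerosis and depends on T cells, was induced with a myelin oligodendrocyte glycoprotein (MOG) peptide in complete Freund's adjuvant (CFA) plus pertussis toxin (PTX), and both were taken on day 15. Mononuclear cells of the mice of a group were pooled, sorted for the surface proteins MHC class II and CD11c, and made into 1 droplet library with a 10x Genomics 3' kit. As each genotype has 1 library, differences could not be checked in replicates and are given without p-values, and the 95% intervals account for counting error alone.

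Cytokine receptors of this pathway have no kinase of their own: JAK kinases bound to their chains phosphorylate the receptor, STAT proteins dock there, are phosphorylated in turn and move to the nucleus. STAT3 carries signals of IL-6, IL-10, IL-23 and G-CSF, STAT5A and STAT5B those of IL-2, IL-7, IL-15 and GM-CSF, and STAT6 those of IL-4 and IL-13. Genes switched on this way include inhibitors such as Socs3 and Cish, so RNA of the feedback genes is often read as a trace of recent signalling, while STAT proteins themselves are regulated mainly after translation.

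Stat5b, Stat5a and Stat3 lie side by side on chromosome 11 in the GENCODE annotation of GRCm38 (the build called mm10 in the submitters' processing notes). Stat5b spans chr11:100780731-100850724 on the minus strand, and Stat5a follows 8626 bases further at chr11:100859351-100885169 on the plus strand. Stat3, at chr11:100885098-100939540 on the minus strand, shares the last 72 bases of Stat5a. How the authors' counting treated reads in this overlap, or reads shared by the near-identical copies Stat5a and Stat5b, is not given in the sources used here, so the split of reads among these genes is uncertain. The other members lie apart, on chromosomes 4 (Jak1), 9 (Tyk2 and Cish), 10 (Stat6), 11 (Socs3), 17 (Pim1) and 19 (Jak2).

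STAT5 and STAT3 dimers are known to bind DNA at TTCNNNGAA, which reads the same on both strands, and STAT6 prefers a longer form, the same TTC and GAA with 4 bases between them. The windows from 250 bases before to 30 bases after each RefSeq transcript start (GRCm38.p6) were searched for both, since Socs3, Cish and Pim1 are read as STAT targets. The 10 genes have 13 such windows. TTCNNNGAA occurred in 2 of the 13, those of Cish and Socs3, and in 7.83% of 32851 windows of all genes. The longer form occurred in 0 of the 13 and in 6.50% of all windows. The 2 windows with a match are shown, in transcript direction, with the matches in capitals. In Cish, at chr9:107296409-107296688 on the plus strand, the matches begin at bases 1 and 12 counted from the transcript start, and in Socs3, at chr11:117969337-117969616 on the minus strand, the match begins 154 bases before the start.
Cish: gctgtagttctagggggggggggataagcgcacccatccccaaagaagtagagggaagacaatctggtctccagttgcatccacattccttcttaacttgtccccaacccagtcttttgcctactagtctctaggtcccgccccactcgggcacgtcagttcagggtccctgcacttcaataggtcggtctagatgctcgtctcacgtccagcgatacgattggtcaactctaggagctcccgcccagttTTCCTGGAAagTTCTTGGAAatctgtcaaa
Socs3: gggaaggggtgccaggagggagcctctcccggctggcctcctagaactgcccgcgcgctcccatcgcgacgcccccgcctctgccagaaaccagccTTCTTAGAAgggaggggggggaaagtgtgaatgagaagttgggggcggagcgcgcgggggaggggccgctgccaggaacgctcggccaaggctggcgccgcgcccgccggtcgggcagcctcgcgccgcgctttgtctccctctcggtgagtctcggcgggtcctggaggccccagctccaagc
A match is a description of letters in the window and was not tied to binding in these cells.

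After the filter (500 or more genes, 1000 or more gene UMIs, under 10% mitochondrial UMIs), 12305 cells of Stat4fl/flCD11cCre and 13298 of WT remained. They held 119793871 and 122244200 UMIs, or counted RNA molecules, with medians of 6878 and 6440.5 per cell. The libraries shared 42 cell barcodes. Cells were put in classes by markers with a UMI, and cells that passed the gates of 2 classes, 14.9% in Stat4fl/flCD11cCre and 20.8% in WT, were left out as possible doublets. Of the classes, 17 had 50 or more cells in each library. Levels are in CPM, a gene's UMIs scaled to all gene UMIs of the class in that library. Not all classes fit a sort for MHC class II and CD11c: H2-Aa, an MHC class II gene, was at 8236 and 7176 CPM in the conventional DC class cDC2, but at 5.46 and 63.8 CPM in choroid plexus epithelium. Stat4, the targeted gene, was at 69.3 CPM in Stat4fl/flCD11cCre and 76.7 CPM in WT in cDC2. Which exons are floxed is not given in the sources used here, so Stat4 reads from the 3' end cannot serve as a check of the deletion.

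Jak1, which serves the receptors of the gp130 family, the common gamma chain family and the interferons, had its highest level in natural killer (NK) cells, at 639 CPM in Stat4fl/flCD11cCre and 622 CPM in WT. CD8 T cells followed with 387 and 390 CPM, and both libraries of NK cells lay above both of CD8 T cells. CD4 T cells (303 and 325 CPM) overlapped both T cells without a CD4 or CD8 call (318 and 320) and regulatory T cells (317 and 298). Mature neutrophils had 268 and 303 CPM and microglia 247 and 215 CPM, while cDC2 had 104 and 124 CPM and cDC1 81.5 and 93.5 CPM. NK and T cells were thus at the top for Jak1 and DCs and progenitors near the bottom, and choroid plexus epithelium was lowest, at 19.1 and 21.3 CPM.

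Jak2, the kinase of the IFN-gamma, GM-CSF, IL-12 and IL-23 receptors, had another order. cDC2 was highest, at 267 CPM in Stat4fl/flCD11cCre and 279 CPM in WT. Mature neutrophils had 224 and 260 CPM and cDC1 187 and 229 CPM, and these last 2 classes overlapped. Regulatory T cells (140 and 149), plasmacytoid DCs (133 and 144) and classical monocytes (101 and 170) overlapped next to each other in the middle, and CD8 T cells were at 73.2 and 71.2 CPM. Tyk2, which binds the IL-12 receptor beta 1 chain shared by IL-12 and IL-23 and the interferon alpha receptor, was highest in cDC1, at 52.2 and 45.7 CPM, followed by cDC2 with 36.4 and 36.1 CPM and NK cells with 36.01 and 34.7 CPM. It was lowest in choroid plexus epithelium, with 1.36 CPM in Stat4fl/flCD11cCre and 0 in WT, where 3 counts would be 3.19 CPM. The 2 conventional DC classes, cDC1 and cDC2, were thus among the first 3 classes for Jak2 and for Tyk2 and among the last 4 for Jak1, while plasmacytoid DCs were at 29.6 and 24.0 CPM of Tyk2, in the middle of its order.

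Stat3 was highest in mature neutrophils, with 345 CPM in Stat4fl/flCD11cCre and 302 CPM in WT, and these overlapped nonclassical monocytes with 310 and 315 CPM. Plasmacytoid DCs had 268 and 279 CPM, apart from both neighbours in the order. From NK cells (235 and 209 CPM) down to CD4 T cells (197 and 165 CPM), 7 neighbouring classes overlapped in turn, among them classical monocytes, regulatory T cells, microglia and cDC2. Inflammatory macrophages were at 145 and 143 CPM and cDC1 at 131 and 130 CPM. Choroid plexus epithelium was lowest, at 10.9 and 18.1 CPM.

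Stat5a and Stat5b, near-identical copies that carry the same cytokine signals, did not share their order. Stat5a was highest in cDC2, at 34.9 CPM in Stat4fl/flCD11cCre and 36.1 CPM in WT, and CD4 T cells (32.6 and 34.0 CPM) and regulatory T cells (29.9 and 34.1 CPM) followed. Stat5b was highest in regulatory T cells, at 182 and 174 CPM, which overlapped T cells without a call (191 and 138 CPM). CD4 T cells, at 168 and 153 CPM, overlapped T cells without a call but not regulatory T cells. Stat5b in cDC2 was 42.3 and 43.8 CPM and in cDC1 22.9 and 20.3 CPM, so the classical DC classes lay in the lower part of its range. Nonclassical monocytes, the patrolling monocytes, had 139 and 121 CPM of Stat5b, apart from classical monocytes with 51.0 and 51.6 CPM. Stat6 was highest in mature neutrophils (79.0 and 92.0 CPM) and nonclassical monocytes (78.2 and 87.3 CPM), which overlapped each other and lay apart from all other classes. The next class, classical monocytes, had 55.2 and 54.5 CPM of Stat6, and T cell classes lay between 30.5 CPM, in CD8 T cells of Stat4fl/flCD11cCre, and 46.1 CPM, in regulatory T cells of WT.

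The feedback genes spread more widely than the STAT genes. Socs3, which binds gp130 and blocks JAK activity, was highest in mature neutrophils, at 522 CPM in Stat4fl/flCD11cCre and 525 CPM in WT. Classical monocytes had 253 and 353 CPM, inflammatory macrophages 202 and 218 CPM and cDC2 217 and 202 CPM. Conventional T cells and NK cells were low: CD4 T cells had 46.6 and 38.5 CPM, NK cells 26.4 and 47.9 CPM and CD8 T cells 22.6 and 27.0 CPM. The mean of the 2 libraries differed 119-fold between the highest and the lowest class for Socs3, against 22.3-fold for Stat3. The lowest class was choroid plexus epithelium for both, with 1 UMI of Socs3 in Stat4fl/flCD11cCre. Over the 16 other classes, the folds were 65.5 for Cish, 21.1 for Socs3 and 8.80 for Pim1. Those of the STAT genes were 8.23 for Stat5b, 7.38 for Stat5a, 3.22 for Stat3 and 3.01 for Stat6, so Pim1 hardly exceeded Stat5b.

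Cish, a STAT5 target that restrains IL-2 and T cell receptor signals, was highest in T cells. Regulatory T cells had 135 CPM in Stat4fl/flCD11cCre and 148 CPM in WT, CD4 T cells 128 and 137 CPM, T cells without a call 121 and 119 CPM and CD8 T cells 98.4 and 85.7 CPM. All other classes were below 40 CPM in both libraries, led by cDC2 with 38.4 and 27.7 CPM. NK cells had 27.0 and 17.9 CPM, and microglia 3.42 and 6.04 CPM. Pim1, a serine/threonine kinase that STAT3 and STAT5 induce and that favours survival and growth, was highest in mature neutrophils, at 1074 and 1135 CPM. Regulatory T cells (561 and 574 CPM), cDC2 (572 and 548), classical monocytes (513 and 561) and cDC1 (404 and 547) followed, each overlapping the next. Regulatory T cells overlapped cDC2 in Pim1 but lay just above both libraries of classical monocytes. CD4 T cells had 281 and 279 CPM and inflammatory macrophages 322 and 349 CPM. Microglia, at 88.3 and 163 CPM, had the lowest mean of the leukocyte classes, with 1 library inside the range of CD8 T cells (194 and 155 CPM).

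**Figure D1:**
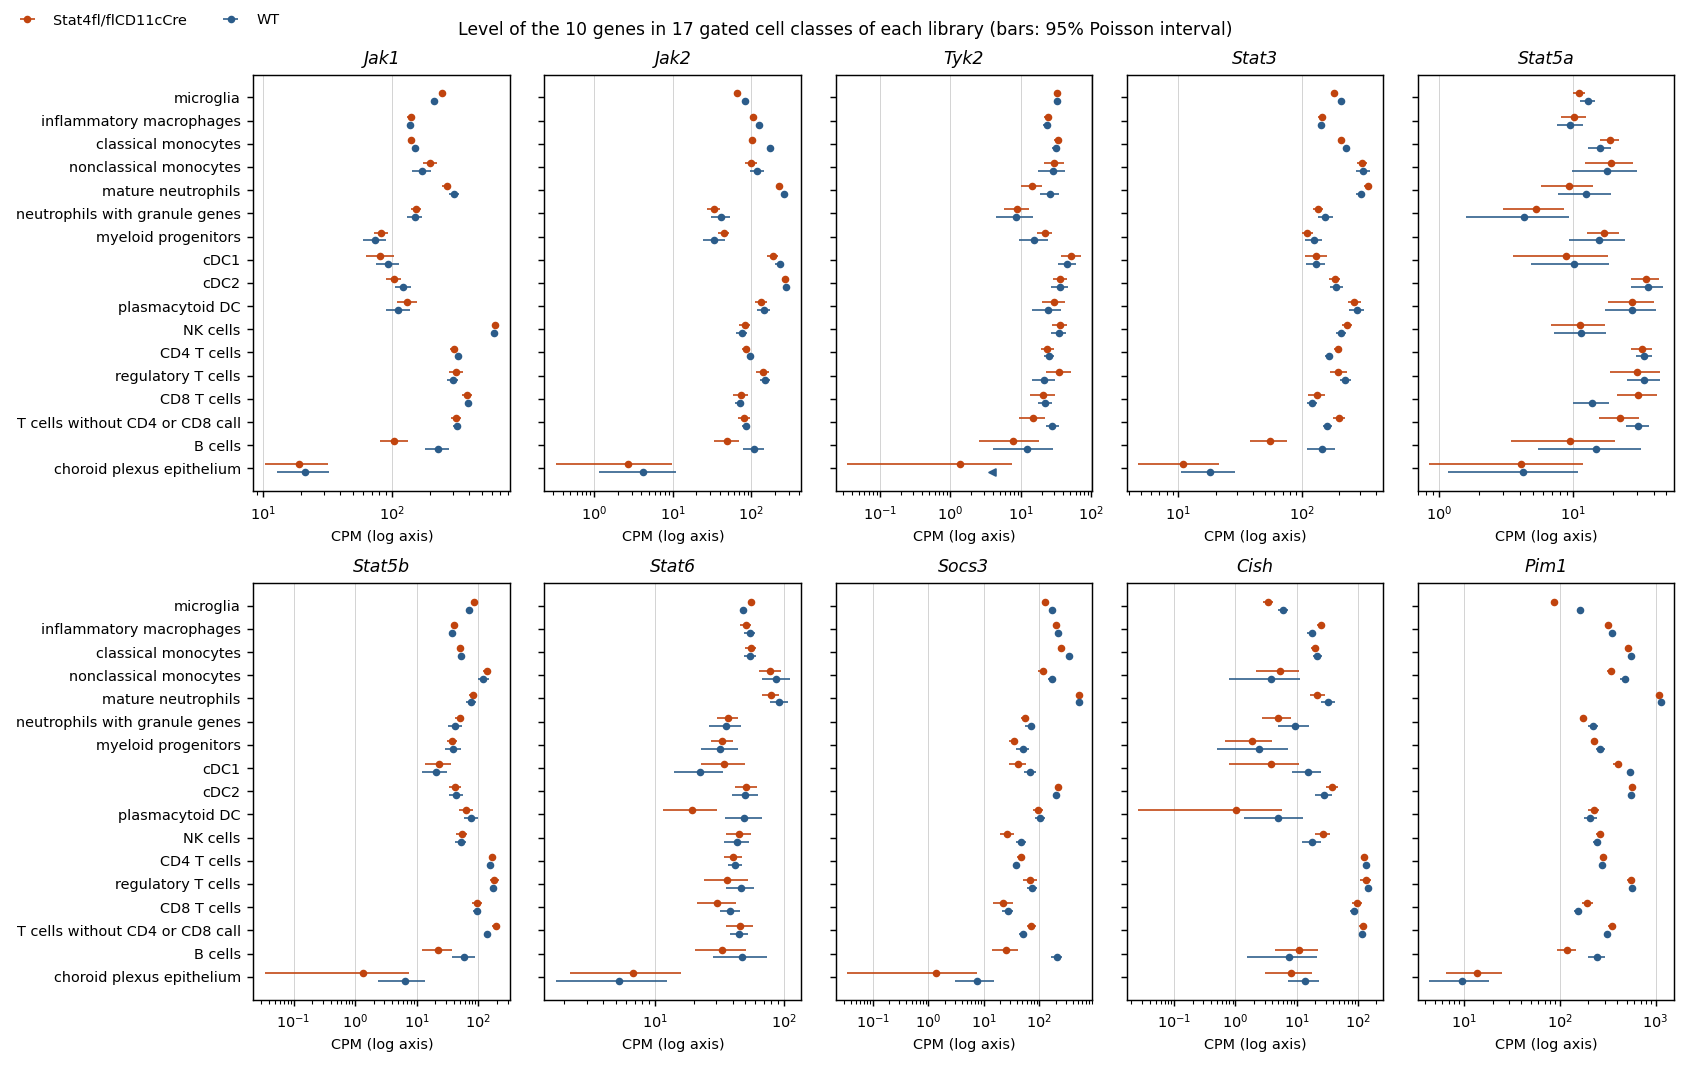
CPM on a log axis of each of the 10 genes in 17 cell classes, with Stat4fl/flCD11cCre (red) above WT (blue) in each row and 95% Poisson intervals; a triangle marks the upper limit where no UMI was found. Mature neutrophils lead for Stat3, Stat6, Socs3 and Pim1, cDC2 for Stat5a and Jak2, cDC1 for Tyk2, NK cells for Jak1 and regulatory T cells for Stat5b and Cish.

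Over the 17 classes, between 8 (Jak1) and 12 (Cish) of the 16 pairs of neighbours overlapped between libraries. B cells, a small class (54 cells in Stat4fl/flCD11cCre and 94 in WT), had 25.2 and 208 CPM of Socs3, but their median depth was 9060 and 3161.5 UMIs, and Lyz2, a myeloid gene, stood at 2858 and 3734 CPM in them. Their differences are given as values and no ratio was taken.

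The genes whose pattern over the classes was most like that of a member were found by Pearson's r of log2(CPM + 1) over 34 points, the 17 classes in each library, among 8044 genes with a mean of 10 CPM or more. The points share 2 libraries and differ in depth, so the values are a description. For Socs3 they were Sbno2 (0.94), Oasl2 (0.93) and Il4ra (0.92), for Pim1 Csrnp1 (0.95), Fxyd5 (0.94) and Srgn (0.93), and for Cish Cd3g, Acsbg1 and Bcl11b (each 0.85), of which Cd3g and Bcl11b are T cell genes. For Jak2 they were Csrnp1 (0.95), Slfn5 (0.93) and Arih1 (0.92), for Jak1 they included Gramd1a (0.95) and Gab3 (0.93), and for Tyk2 Tmed5 (0.92), Sp110 (0.92) and Acsl5 (0.91). For Stat3 they were Cd53 (0.94), Cmip (0.93) and Lnpep (0.93), for Stat6 Irf2 (0.94), Msn (0.93) and Stk40 (0.93), for Stat5b Mier1 (0.94), Ncor1 (0.92) and Stk24 (0.91), and for Stat5a Cd48, Areg and Tmub1 (each 0.82). Without choroid plexus epithelium, where most leukocyte genes are near 0, 14 of the 30 genes, 3 for each member, kept their place, and 0 of 3 did for Stat5a and for Tyk2. Among the members, r was 0.91 for Jak2 with Pim1 and -0.04 for Socs3 with Cish. Without choroid plexus epithelium these values were 0.75 and -0.14.

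The genotypes were compared in the 7 classes that held at least 200 cells of each genotype and, added after the cell numbers were seen, in 5 classes with at least 100 but fewer than 200 cells in the smaller library. A member counted in a class with 50 or more UMIs over both libraries, and was called where the CPM ratio of Stat4fl/flCD11cCre over WT was 1.5 or more, or 1/1.5 or less (0.58 on the log2 scale). In the 7 classes, 1 of 68 pairs of member and class was called higher and 6 were called lower; in the 5 added classes 1 of 42 was higher and 1 lower. As shares, 1.47% of the members' pairs were higher and 8.82% lower in the 7 classes, where 4.21% and 6.14% of 63080 pairs of any tested gene and class were. In the 5 added classes the shares were 2.38% in either direction for the members and 4.39% higher and 5.80% lower over all tested genes. The members called lower were Pim1 and Cish in microglia, Jak2 in classical monocytes, Tyk2 in mature neutrophils and in T cells without a call, Socs3 in NK cells and, among the added classes, Stat6 in plasmacytoid DCs. Those called higher were Cish in NK cells and Stat5a in CD8 T cells.

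**Figure D2:**
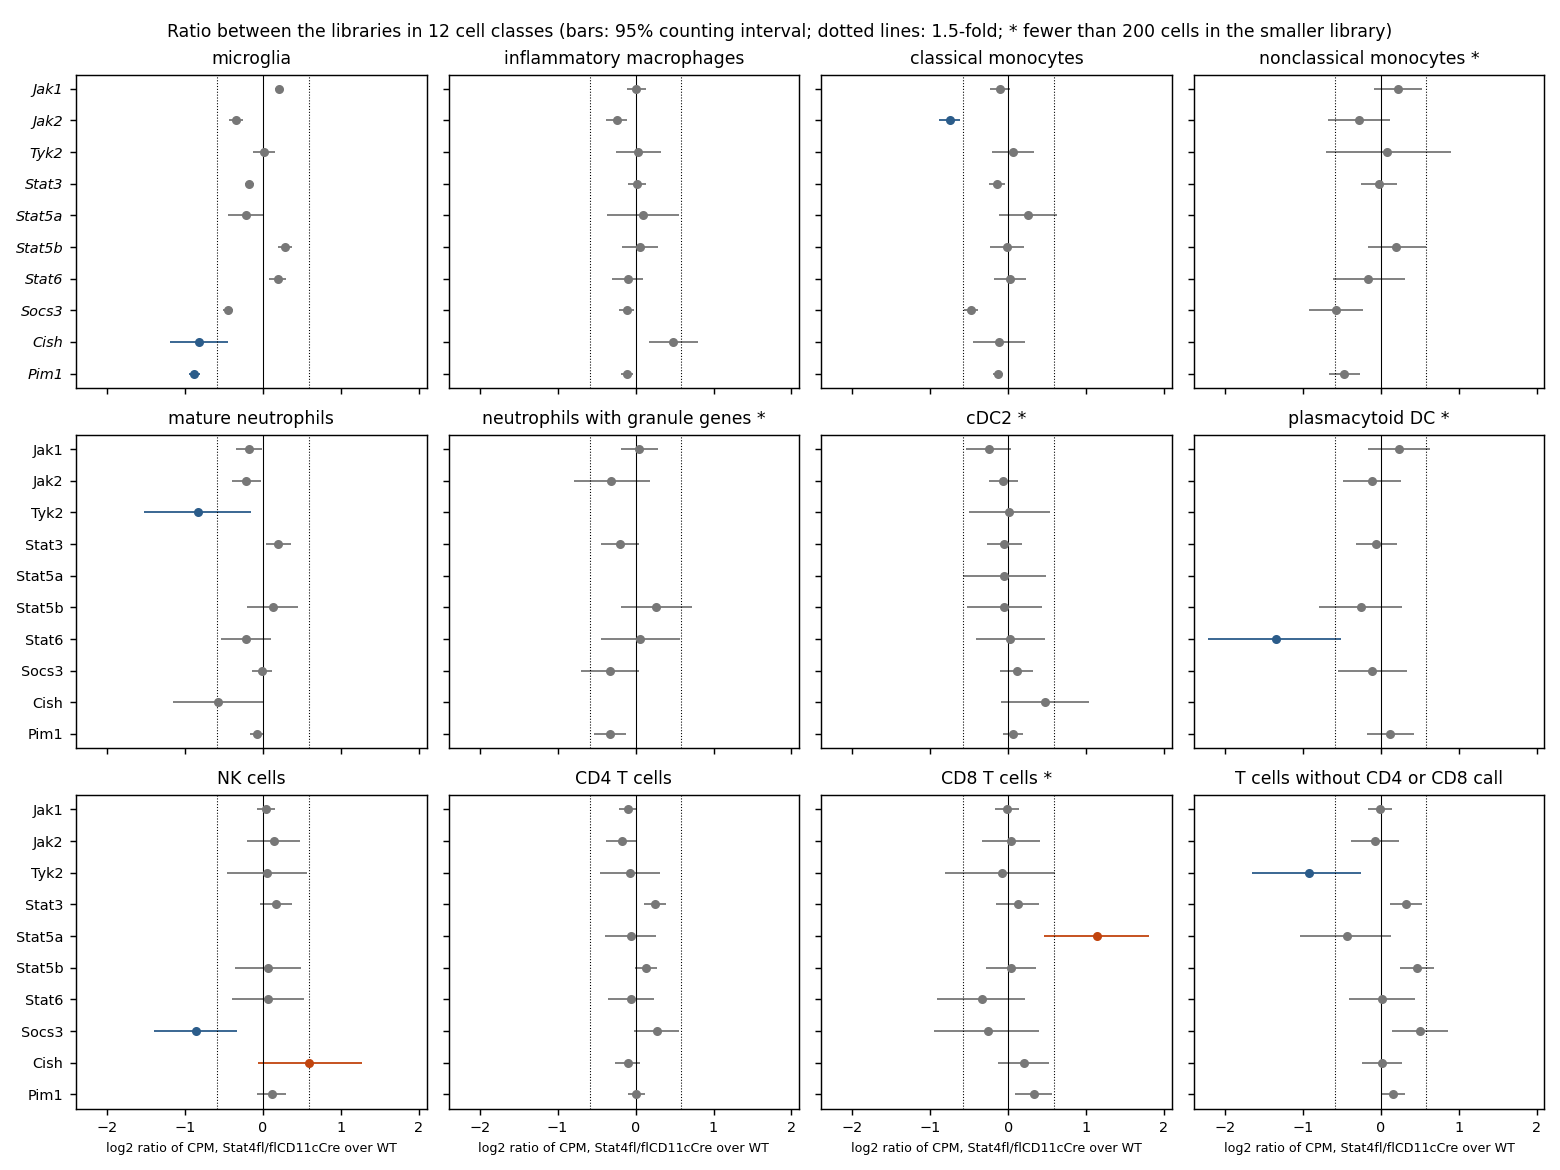
Log2 ratio of CPM, Stat4fl/flCD11cCre over WT, for the 10 genes in 12 classes, with 95% counting intervals and dotted lines at 1.5-fold; genes under 50 UMIs are left out, blue points are called lower and red points higher. Most points lie between the dotted lines, and the widest gaps with narrow intervals are Pim1 in microglia (-0.88) and Jak2 in classical monocytes (-0.75).

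Microglia, the resident macrophages of the brain, held the most cells, 5092 in Stat4fl/flCD11cCre and 3261 in WT. Of the 10 members 0 were called higher and 2 lower, where 7.20% of the 13147 genes tested in microglia were higher and 10.1% lower, and the median log2 ratio was -0.20 over the members and 0.09 over all genes tested. Pim1 was at 88.3 CPM in Stat4fl/flCD11cCre and 163 CPM in WT, a log2 ratio of -0.88 (-0.96 to -0.81), and Cish at 3.42 and 6.04 CPM, a log2 ratio of -0.82 (-1.20 to -0.45). Socs3 (126 and 171 CPM, log2 -0.44), Jak2 (65.0 and 82.8 CPM, log2 -0.35) and Stat3 (184 and 207 CPM, log2 -0.18) were lower within 1.5-fold, with intervals below 0. Stat5b (85.1 and 69.9 CPM, log2 0.28), Jak1 (247 and 215 CPM, log2 0.20) and Stat6 (55.3 and 48.5 CPM, log2 0.19) were higher within 1.5-fold, with intervals above 0.

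The microglia of the 2 libraries were not the same mixture. Leiden cluster 7 held 48.0% of them in Stat4fl/flCD11cCre and 14.01% in WT, and cluster 9 held 11.9% and 46.4%. H2-Aa stood at 563 and 1585 CPM in the class. Some markers of other cells in the class were lower with Pim1 and Cish: the 6 mature neutrophil markers summed to 23.1 and 50.2 CPM, the 6 T cell markers to 5.74 and 10.9 CPM and the 6 classical monocyte markers to 950 and 1393 CPM, all 18 with a UMI in both libraries. Other lists were level or higher, with inflammatory macrophage markers at 881 and 890 CPM, B cell markers at 26.7 and 22.9 CPM and plasmacytoid DC markers at 1101 and 740.5 CPM, and the 7 microglia markers themselves summed to 8412 and 5212 CPM. The part of these differences in the result was not tested. Of the 16 genes of a dissociation stress list, 0 were higher and 2 lower, Hspa1b (276 and 603 CPM) and Hspa1a (236 and 508 CPM), and the list summed to 5691 and 6134 CPM.

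Split after the data were seen by their own MHC class II RNA, microglia with 3 or more UMIs of H2-Aa and H2-Ab1 (943 cells in Stat4fl/flCD11cCre, 2323 in WT) had 195 and 180 CPM of Pim1, a log2 ratio of 0.11 (0.03 to 0.19). Microglia with no such UMI (3358 and 489 cells) had 32.1 and 65.7 CPM, a log2 ratio of -1.03 (-1.31 to -0.75). Pim1 thus had an interval above 0 among cells with MHC class II RNA and below 0 among those without it. Between the 2 groups of cells within a library, Pim1 was higher in the group with MHC class II RNA by a log2 ratio of 2.60 (2.47 to 2.73) in Stat4fl/flCD11cCre and 1.46 (1.20 to 1.72) in WT. Socs3 followed, at 191 and 183 CPM in the first group and 86.3 and 111 CPM in the second. Cish was at 7.22 and 6.74 CPM in the first and 1.20 and 3.06 CPM in the second. Its second pair rested on 22 and 6 UMIs, and in WT the interval of Cish between the groups spanned 0 (-0.03 to 2.62). Jak1 ran the other way, with 221 and 207 CPM in cells with MHC class II RNA and 261 and 244 CPM in cells without, a log2 ratio of -0.24 within each library.

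Depth differed between these groups, with medians of 9276 and 5565 UMIs per cell with MHC class II RNA and 4756.5 and 3648 without. With each cell thinned to 2500 UMIs before the split, the log2 ratio of Pim1 between the libraries was 0.19 with MHC class II RNA and -1.20 without. In the second group the 6 mature neutrophil markers summed to 15.2 CPM in Stat4fl/flCD11cCre and 47.9 CPM in WT, and the 6 classical monocyte markers to 309 and 587 CPM. In the group with MHC class II RNA the classical monocyte markers ran the other way, at 2148 and 1550 CPM, and the mature neutrophil markers were at 38.8 and 47.7 CPM. Both lists moved with Pim1 in the group without this RNA and the monocyte list in the group with it, and their part was not tested. Within single clusters, the log2 ratio of Pim1 was -0.98 in cluster 7 (10.3 and 20.3 CPM) and -0.96 in cluster 8 (9.53 and 18.5 CPM), but -0.18 in cluster 9 (59.6 and 67.4 CPM) and -0.07 in cluster 2 (326 and 342 CPM). Socs3 was lower in clusters 7 (-0.84), 8 (-0.70) and 2 (-0.31) and higher in cluster 9 (0.52).

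**Figure D3:**
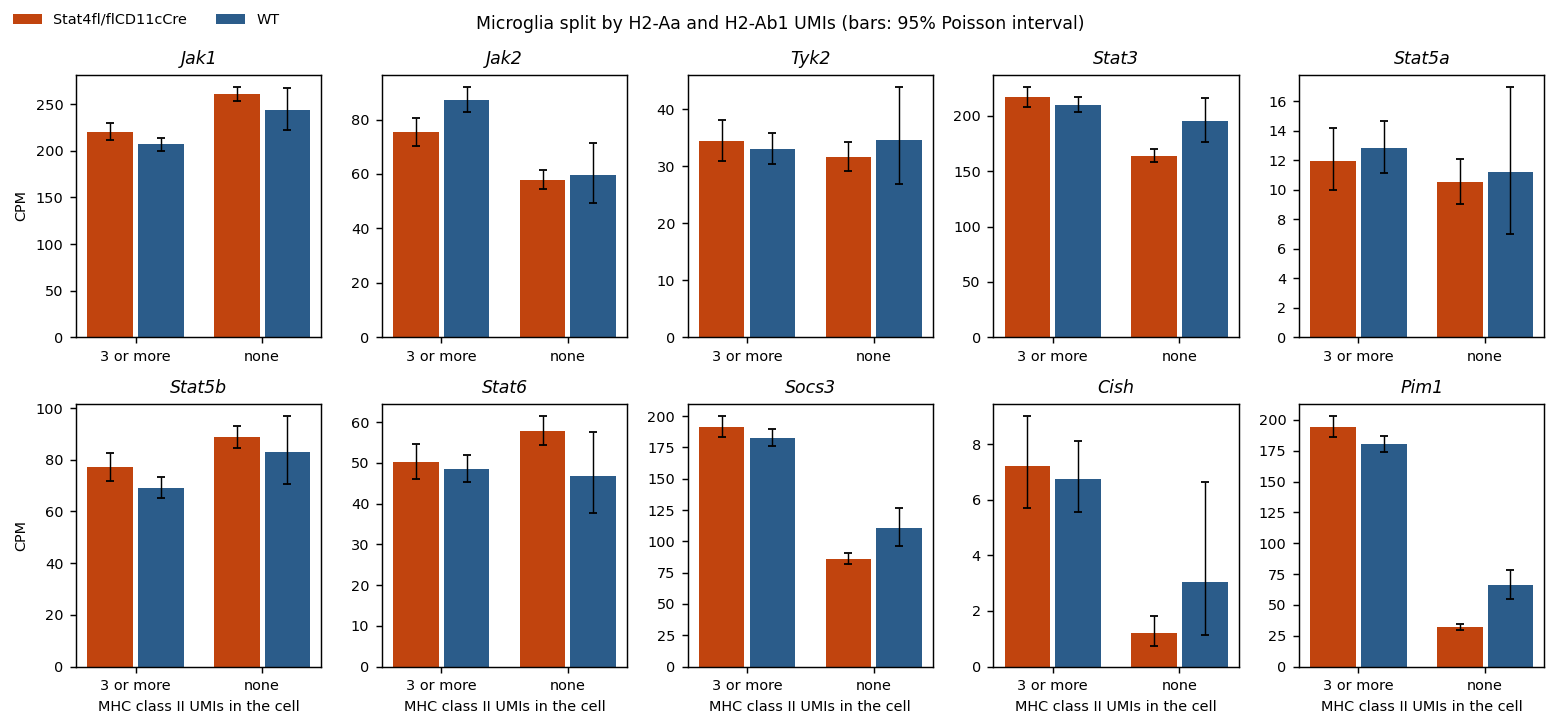
CPM of the 10 genes in microglia with 3 or more and with no H2-Aa and H2-Ab1 UMIs, Stat4fl/flCD11cCre (red) left of WT (blue), with 95% Poisson intervals. Pim1 is at 195 and 180 CPM in the first group and at 32.1 and 65.7 CPM in the second. Socs3 and Cish show the same order of groups, and Jak1 the opposite one. Cish rests on 22 and 6 UMIs in the second group.

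Around the members, the rest of the pathway in microglia was described from lists. Of 21 other JAK-STAT core genes, all tested, 0 were higher and 5 lower, among them Stat2 (50.5 CPM in Stat4fl/flCD11cCre and 122 CPM in WT), which carries interferon signals, the inhibitors Socs1 (16.4 and 34.5) and Socs2 (4.81 and 10.05), and Stat4 (2.12 and 3.24). The list's median log2 ratio was 0.02. Of 23 tested genes of 34 receptor chains, 2 were higher and 5 lower, with Il6st, which encodes gp130, at 188 and 98.0 CPM, Il2rg, the common gamma chain, at 23.3 and 69.1 CPM, Il12rb1 at 1.62 and 6.14 CPM and Il15ra at 33.9 and 62.7 CPM. Among 19 tested STAT3-linked genes 1 was higher, the transcription factor gene Maf (697 and 411 CPM), and 5 were lower, among them Saa3 (40.7 and 120 CPM) and the IL-1 receptor antagonist gene Il1rn (28.7 and 62.9 CPM). Of 12 tested STAT5-linked genes 0 were higher and 5 lower, with Ccnd2, a cyclin gene, at 4.00 and 9.62 CPM. Of 12 tested STAT6-linked genes 3 were higher and 3 lower, with the mannose receptor gene Mrc1 at 18.5 and 10.4 CPM and Chil3 at 213 and 329 CPM. Of 6 tested ligand genes 0 were higher and 3 lower, Il10 (1.13 and 3.09 CPM), Il23a (0.957 and 2.61 CPM) and Il27 (9.80 and 18.7 CPM).

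In classical monocytes (792 cells in Stat4fl/flCD11cCre and 949 in WT), Jak2 was at 101 CPM in Stat4fl/flCD11cCre and 170 CPM in WT, a log2 ratio of -0.75 (-0.88 to -0.62). It was the 1 member of 10 called lower and 0 were called higher, where 4.18% of 9454 genes were higher and 5.52% lower. Socs3, at 253 and 353 CPM, had a log2 ratio of -0.48 (-0.57 to -0.39), and Stat3 and Pim1 ratios of -0.15 and -0.13. The class was spread over clusters 4, 10 and 3, which held 40.3%, 28.7% and 21.5% of it in Stat4fl/flCD11cCre and 58.9%, 10.5% and 22.7% in WT. When classes were taken from clusters instead of markers, the Jak2 ratio was -0.43, within 1.5-fold. Mature neutrophil markers, whose cells have more Jak2 and Socs3 than monocytes, summed to 94.6 and 151 CPM in this class with all 6 found, and their part was not tested. Socs1 (50.3 and 98.9 CPM) was the 1 of 20 tested core genes called lower with 0 higher. Of 21 tested receptor chains 0 were higher and 4 lower, with Il2rg at 82.4 and 124 CPM and Csf2rb2, a copy of the GM-CSF receptor beta chain, at 44.2 and 66.7 CPM. Of 19 tested STAT3-linked genes 0 were higher and 2 lower, Il1rn (138 and 272 CPM) and Saa3 (349 and 538 CPM). Among 5 tested ligands Il6 was lower (32.0 and 69.0 CPM) and Osm, which encodes oncostatin M and is also in the STAT5-linked list, higher (188 and 114 CPM). Of 16 stress genes 0 were higher and 4 lower, led by Hspa1b (216 and 550 CPM).

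In inflammatory macrophages (641 and 852 cells), which carry Arg1 and Ms4a7 among their markers, 0 of 10 members were called in either direction, against 1.88% of 9824 genes higher and 3.26% lower. Cish, at 24.7 CPM in Stat4fl/flCD11cCre and 17.7 CPM in WT, had the log2 ratio farthest from 0, 0.48 (0.17 to 0.80), and Jak2, at 104 and 123 CPM, had -0.24 (-0.38 to -0.11). Stat6 was at 50.6 and 54.3 CPM (log2 -0.10, -0.30 to 0.09). Of 10 tested STAT6-linked genes 3 were higher and 0 lower, with a median log2 ratio of 0.47. They were Ccl24, an eosinophil chemokine gene, at 27.5 and 3.39 CPM, the T cell chemokine gene Ccl17 at 14.6 and 6.06 CPM and Mrc1 at 59.2 and 31.3 CPM. Of the 20 tested core genes Socs1 was lower (40.1 and 61.0 CPM), and of 6 ligands Il6 (18.1 and 33.1 CPM) and Il23a (3.76 and 6.18 CPM) were lower.

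In mature neutrophils (641 and 469 cells), Tyk2 was at 14.4 CPM in Stat4fl/flCD11cCre and 25.7 CPM in WT, a log2 ratio of -0.84 (-1.53 to -0.16) from 34 and 43 UMIs. It was the 1 of 9 tested members called lower, with 0 higher, against 3.73% of 6362 genes higher and 11.2% lower. Cish, at 22.0 and 32.8 CPM, lay just inside the fold with a log2 ratio of -0.58, and Pim1 and Socs3, of which these cells have the most, had ratios of -0.08 and -0.01. Stat4 was at 47.7 and 25.7 CPM, and Socs1 at 92.5 and 147 CPM. Of 17 tested STAT3-linked genes 3 were higher and 0 lower: Lrg1 (967 and 544 CPM) and Lcn2 (1730 and 1019 CPM), both also neutrophil granule genes, and Fos (1594 and 1045 CPM). Cluster 22, whose cells mostly passed the gate for granule genes, held 24.7% of the class in Stat4fl/flCD11cCre and 10.9% in WT. Of 16 stress genes 2 were higher and 4 lower. In neutrophils with granule genes, 0 of 7 tested members were called, against 2.58% of 5080 genes higher and 10.4% lower, and Pim1 was at 176 and 222 CPM (log2 -0.33).

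NK cells (273 and 365 cells) had 26.4 CPM of Socs3 in Stat4fl/flCD11cCre and 47.9 CPM in WT, a log2 ratio of -0.86 (-1.40 to -0.33). Cish was at 27.0 and 17.9 CPM, a log2 ratio of 0.59 with an interval that spans 0 (-0.07 to 1.27). These were the 1 lower and 1 higher of 9 tested members, against 4.20% of 6995 genes higher and 3.69% lower. Jak1, at its highest here, had a log2 ratio of 0.04, and Stat4 stood at 384 and 406 CPM. Among 17 tested core genes 2 were lower, with Stat2 at 13.5 and 22.6 CPM, and 0 higher, and Il2ra, the IL-2 receptor alpha chain gene, was at 14.6 and 24.7 CPM. Some marker lists of myeloid cells moved with Socs3. The 6 classical monocyte markers summed to 918 and 1369 CPM in NK cells, with all 6 found. Those of inflammatory macrophages summed to 10.7 and 52.1 CPM. Markers of microglia (38.3 and 26.3 CPM) and plasmacytoid DCs (142 and 26.9 CPM) ran the other way, and 6 of 16 stress genes were lower and 0 higher. The monocyte list also summed to 2215 and 3038 CPM in CD8 T cells, so its sum in NK cells cannot be read as RNA of myeloid cells alone. The part of these lists in the Socs3 value was not tested.

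In CD4 T cells (484 and 891 cells), 0 of 10 members were called, against 2.29% of 9457 genes higher and 4.04% lower. Stat3 was at 197 CPM in Stat4fl/flCD11cCre and 165 CPM in WT, a log2 ratio of 0.25 (0.11 to 0.39), and Stat4 at 213 and 244 CPM. Il13, a cytokine gene of type 2 helper cells, was at 11.97 and 1.69 CPM and Osm at 29.8 and 11.7 CPM, the 2 of 6 tested ligands called higher, with 0 lower. Of 21 core genes 0 were called in either direction. The CD4 class was divided by Il17a and Ifng, the cytokine genes of Th17 and Th1 cells. In cells with Ifng and no Il17a (119 and 317 cells), Socs3 was at 46.0 CPM in Stat4fl/flCD11cCre and 24.8 CPM in WT, a log2 ratio of 0.89 (0.31 to 1.47). Jak2 in the same cells was at 55.6 and 84.2 CPM, a log2 ratio of -0.60 (-1.05 to -0.17). In cells without either cytokine (299 and 505 cells), Socs3 was at 51.0 and 53.9 CPM and Cish at 101 and 127 CPM, and in cells with Il17a (66 and 69 cells) Jak1 was at 203 and 298 CPM. The ratio of Socs3 in cells with Ifng rests on 48 and 60 UMIs. The share of all genes past 1.5-fold was not taken in these smaller groups, and the shares above are those of the whole CD4 class.

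**Figure D4:**
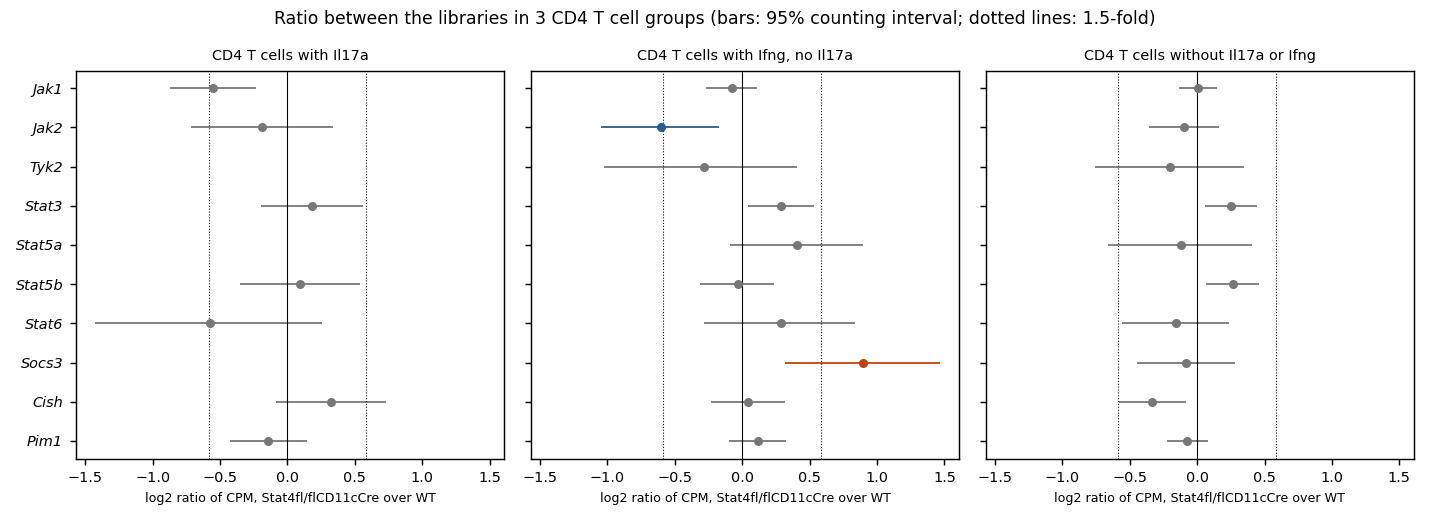
Log2 ratio of CPM, Stat4fl/flCD11cCre over WT, of the 10 genes in CD4 T cells with Il17a, with Ifng and no Il17a, and without either, with 95% counting intervals and dotted lines at 1.5-fold; genes under 50 UMIs are left out. Socs3 (0.89) and Jak2 (-0.60) in cells with Ifng lie past the lines. The share of all genes past them was not taken in these groups.

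T cells without a CD4 or CD8 call (236 and 586 cells) had 14.8 CPM of Tyk2 in Stat4fl/flCD11cCre and 28.0 CPM in WT, a log2 ratio of -0.92 (-1.65 to -0.25) from 23 and 92 UMIs, but -0.13 after thinning to 2500 UMIs per cell. This was the 1 of 10 members called lower, with 0 higher, against 4.85% of 7841 genes higher and 4.46% lower. Socs3 (72.7 and 51.2 CPM, log2 0.51), Stat5b (191 and 138 CPM, log2 0.47) and Stat3 (202 and 161 CPM, log2 0.32) were higher within 1.5-fold, with intervals above 0. In CD8 T cells (165 and 539 cells) Stat5a was at 30.5 and 13.8 CPM, a log2 ratio of 1.14 (0.46 to 1.81) from 35 and 45 UMIs, while Stat5b was at 96.7 and 94.0 CPM (log2 0.04). Stat5a was the 1 of 10 members called higher there, with 0 lower, against 5.0% of 7226 genes higher and 4.91% lower. When classes were taken from clusters, its ratio was 0.33, within 1.5-fold. Ctla4, a STAT5-linked checkpoint receptor gene, was at 144 and 73.7 CPM in the same cells and Ifng at 82.7 and 189 CPM.

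In cDC2 (181 and 179 cells), the class nearest to the intended target of the Cre, 0 of 10 members were called, against 3.93% of 6389 genes higher and 4.40% lower. Jak2 was at 267 CPM in Stat4fl/flCD11cCre and 279 CPM in WT (log2 -0.06, -0.25 to 0.12), Stat3 at 185 and 191 CPM (log2 -0.05, -0.27 to 0.17), Pim1 at 572 and 548 CPM (log2 0.06, -0.07 to 0.19) and Socs3 at 217 and 202 CPM (log2 0.11, -0.10 to 0.32). For Stat5a the interval was wide (-0.57 to 0.48), and Cish, at 38.4 and 27.7 CPM, had 0.47 (-0.09 to 1.04). Of 13 tested core genes 0 were called in either direction. Of 20 tested receptor chains Il6st was higher (39.3 and 23.8 CPM) and 0 lower. Of 12 tested STAT6-linked genes 3 were higher and 2 lower, with the lectin genes Mgl2 at 475 and 251 CPM and Mrc1 at 125 and 69.6 CPM, and with Chil3, also a monocyte marker, at 53.1 and 232 CPM and Arg1 at 12.8 and 26.4 CPM. The 6 classical monocyte markers, Chil3 among them, summed to 2582 and 3353 CPM in cDC2, with all 6 found, and the mature neutrophil markers to 314 and 240 CPM. Of 16 stress genes 4 were higher, among them Dusp1 (459 and 276 CPM) and Fos (1184 and 759 CPM), and 3 lower, among them Hspa1b (374 and 895 CPM). The part of these lists was not tested.

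Plasmacytoid DCs (122 cells in each library) had 19.4 CPM of Stat6 in Stat4fl/flCD11cCre and 49.2 CPM in WT, a log2 ratio of -1.34 (-2.22 to -0.52) from 19 and 39 UMIs. When classes were taken from clusters, it was -0.30, within 1.5-fold. Stat6 was the 1 of 7 tested members called lower, with 0 higher, against 4.62% of 4974 genes higher and 4.18% lower, and Il4ra, the receptor chain that STAT6 docks to, was at 47.0 and 73.2 CPM. Nonclassical monocytes (189 and 120 cells) had 0 of 8 tested members called, against 5.69% of 5182 genes higher and 5.85% lower. Socs3, at 115 and 171 CPM, lay just inside the fold with a log2 ratio of -0.57 (-0.92 to -0.22), and Pim1, at 346 and 478 CPM, had -0.47 (-0.67 to -0.26). Socs3 thus had intervals below 0 in microglia, classical monocytes, inflammatory macrophages, nonclassical monocytes and NK cells, and an interval above 0 in T cells without a call. That of inflammatory macrophages came near 0 (log2 -0.11, -0.21 to -0.01). The microglia value did not hold in the whole class. With 3 or more MHC class II UMIs it was 0.07 (-0.01 to 0.15), and thinned 0.29 (0.10 to 0.47). With no such UMI it was -0.36 (-0.56 to -0.15), and thinned -0.40 (-0.66 to -0.13).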

How the data were processed

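Single-cell RNA libraries of sorted CNS cells, 1 per genotype, were read from the deposited matrices, which hold raw UMI counts per gene and barcode made by the authors with Cell Ranger 7.0.0, per the submitters' processing notes. The notes also name mm10, STAR, bcl2fastq, Seurat and R 4.3.0 without a role. The sources used here name no annotation release and do not say whether intron reads were counted or doublets removed before deposit. The 5 antibody tags in each matrix were left out. Genotype groups came from the labels. Nothing but the pool of mice stands behind each library, so intervals cover counting error only.

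Barcodes with 500 genes, 1000 UMIs and under 10% mitochondrial UMIs were kept. Median depth was 6878 UMIs in Stat4fl/flCD11cCre and 6440.5 in WT. A cell took a class by its markers with a UMI: 4 for microglia, 2 for T, B and NK cells and cDC1, and 3 for other classes described. NK cells had no Cd3e UMI. Classical monocytes carried Chil3, F13a1 or Vcan, fewer than 2 macrophage and fewer than 2 cDC2 markers. T cells were split by Cd4, Cd8a or Cd8b1, Foxp3 and Trdc. These thresholds were set after the files were seen. Cells in 2 gates were left out. Counts were summed per class and library and given as CPM with exact Poisson intervals, and ratios with exact conditional binomial intervals (Python 3.11.15, scipy 1.17.1). Clusters and Scrublet scores came from scanpy 1.11.5. Thinning to 2500 UMIs left out 6.23% of cells in Stat4fl/flCD11cCre and 9.75% in WT. The ratio step was tested on simulated data.

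The members and all lists were chosen with earlier results of these data known. All 10 members are named, with the 3 genes most like each, and up to 4 genes per list and class, those whose interval lies farthest from 1; a few results are not reported here. Of 10 alternatives written beforehand and 4 added later, the closing section gives the effect.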

Additional observations from a re-analysis of the deposited data

Results flagged for a closer look

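For 4 members the intervals of the ratio of Stat4fl/flCD11cCre over WT lay on opposite sides of 0 in 2 classes, 1 of them past 1.5-fold. These differences between classes were not tested, since each rests on 1 library per genotype. For Pim1, the log2 ratio was 0.33 in CD8 T cells and -0.88 in microglia, a difference of 1.21. For Cish, it was 0.48 in inflammatory macrophages and -0.82 in microglia, a difference of 1.30. For Socs3, it was 0.51 in T cells without a CD4 or CD8 call and -0.86 in NK cells, a difference of 1.36. For Stat6, it was 0.19 in microglia and -1.34 in plasmacytoid DCs, a difference of 1.53.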

How the results depend on the processing

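No paired analysis was possible because each genotype has 1 library. Pairs of member and class called lower, 6 of 68 in the 7 main classes, stayed between 4 and 7 over the 10 alternatives written beforehand. The pairs tested were not the same in all of them. With classes from Leiden clusters 4 of 59 were lower, and T cells without a call had no value, so the Tyk2 call there could not recur. After thinning, 4 of 62 were lower. The 1 called higher became 2 with a gate of 1 more marker and without the 10% highest Scrublet scores, 3 after thinning to 2500 UMIs, and 0 with classes from Leiden clusters, without mitochondrial and ribosomal protein genes, with the median of ratios and with the mean of per-cell CPM. Cish in NK cells ranged from 0.38 to 1.15 on the log2 scale and passed the fold in 6 of 10 alternatives. Pim1 (-1.31 to -0.86) and Cish (-1.30 to -0.79) in microglia, Socs3 in NK cells (-1.27 to -0.61) and Tyk2 in mature neutrophils (-1.07 to -0.60) passed it in 10 of 10. In alternatives added after the data were seen, the sign turned for 2 called results. Pim1 in microglia was 0.11, and 0.19 thinned, among cells with 3 or more MHC class II UMIs. Cish was 0.10, and 0.14 thinned, in these cells, 0.20 in microglia of cluster 2 and 0.41 in cluster 8. Between 7 and 10 members kept their highest class in each alternative, and 4 of 10 did in all 10. Jak2 (303 CPM in mature neutrophils, 237 in cDC2), Stat5a and Tyk2 changed it with classes from clusters. Stat3 and Stat6 moved to nonclassical monocytes in 3 and 2 alternatives, and Cish to CD4 T cells after thinning. Of 1138 ratios under an alternative, 1018 lay inside the counting interval of the reported value, 114 outside it with the sign of any called value kept, and 6 turned. The alternatives of 10 or more UMIs and of 1 or more UMIs in each library change only which pairs are tested, never a ratio. Their 110 ratios each, counted among the 1018, equal the reported ones by design. Both also count as passed for every called pair above, and leave the highest classes as they were. Depth limits Tyk2, Stat5a and Cish most: several of their values rest on under 50 UMIs per library, and differences under 1.5-fold were then not detectable.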
